A study of Mus musculus with 4 samples.

Results

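The regions described here are 1189 peaks of open chromatin that were gained at CpG-poor protein-coding promoters in embryonic mouse hearts without SMYD1. They were chosen by 2 conditions. The nearer edge of the peak lay within 1 kb of a transcription start site (TSS) of a protein-coding gene in GENCODE M21, and the 500 bp window around its centre had a ratio of observed to expected CpG dinucleotides below 0.4. The 1189 peaks were 10.5% (95% interval 9.94 to 11.1%) of the 11331 gained peaks within 1 kb of such a TSS, and 4.62% of all 25745 gained peaks. The other 10142 gained promoter peaks, with ratios of 0.4 or more, served as the comparison and are called CpG-richer. Of the 106 peaks that were higher in wild-type hearts, 1 lay within 1 kb of a protein-coding TSS, and its window was not CpG-poor.

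The peaks came from ATAC-seq, an assay of chromatin accessibility in which a transposase cuts DNA that is not wrapped in nucleosomes. Hearts were taken at embryonic day (E) 9.5 from embryos with no functional *Smyd1* (*Smyd1-KO*, a conventional null allele carried by every cell) and from wild-type (WT) embryos. The stock was *Smyd1*+/- mice, embryos of both sexes were used, and whole hearts were dissociated without sorting, so a library holds every cell type of the heart. Each genotype had 2 libraries, each made from 40000 viable cells of 4 pooled hearts. SMYD1 is a histone methyltransferase found in striated muscle, and embryos without it die in mid-gestation with defects of the cardiomyocytes and the right ventricle. The authors pooled the 2 libraries of a genotype before they listed the peaks, so no value here has a replicate error, library depths are unknown from the lists, and every test compares peaks with peaks rather than hearts with hearts. A gained peak may stand for more open chromatin per cell or for more cells of a type in the pool, and these cannot be told apart. The *Smyd1* gene itself had no gained peak within 1 kb of a TSS, although its TSS windows were CpG-poor (ratios from 0.072 to 0.304), so these lists do not check the genotype.

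In mammalian genomes most promoters lie in CpG islands, where the CpG dinucleotide has been kept because it is rarely methylated. CpG-island promoters belong mostly to genes used in many cell types, often start transcription over a broad stretch, and have boxes for SP and KLF factors, NF-Y, ETS factors and NRF1. CpG-poor promoters have lost most CpGs through methylation and mutation. They are typical of genes restricted to a tissue, such as those of the contractile apparatus, and rely more on a TATA box and on factors of that tissue. In the heart, such factors include GATA4, MEF2C, TEAD1, NKX2-5 and SRF, which binds the CArG box.

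The CpG content that defined the regions can be seen by setting a CpG-poor peak beside a CpG-richer one from the same gene group. The stretch of the *Tnnt2* peak (cardiac troponin T) outside annotated exons, chr1:135836163-135836311 on the plus strand of mm10, held 2 CpGs in 149 bases. The stretch of the CpG-richer gained peak upstream of *Des* (desmin), chr1:75360150-75360298 on the plus strand, held 7. CpGs are in capitals, and both run 5′ to 3′ towards the gene.
Tnnt2: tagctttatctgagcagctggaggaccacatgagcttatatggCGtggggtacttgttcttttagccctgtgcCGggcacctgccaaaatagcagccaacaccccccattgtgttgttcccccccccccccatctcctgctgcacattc
Des: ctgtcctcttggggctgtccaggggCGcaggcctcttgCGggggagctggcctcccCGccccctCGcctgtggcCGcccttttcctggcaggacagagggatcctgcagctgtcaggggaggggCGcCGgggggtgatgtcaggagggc

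Of the 27 gained CpG-poor peaks at listed sarcomere and contractile genes, 7 held a short match to a GATA, MEF2, TEAD, T-box, NKX2 or CArG motif and 20 held none. The share of 25.9% has an interval (11.1 to 46.3%) that includes the 14.3% of all CpG-poor peaks and the 11.5% of windows of the same length at CpG-poor TSSs without a gained peak that held any of these 6 motifs. The following stretches, of 4 of the 7 peaks and of a peak of *Nppa*, a gene of another list, are shown because they place the matches relative to the nearest TSS. All are on mm10 and written on the strand of the gene, cut so that no annotated exon is included, with the matches in capitals. *Acta1* (skeletal alpha-actin, also expressed in the embryonic heart), chr8:123894773-123894921 on the minus strand, had a CArG box starting 97 bases and TATAAA starting 31 bases upstream of the TSS. *Actc1* (cardiac alpha-actin), chr2:114052888-114053003 on the minus strand, had a CArG box starting 35 bases upstream. *Myl3* (a ventricular and slow-muscle light chain of myosin), chr9:110763524-110763645 on the plus strand, had a CArG box starting 53 bases upstream. *Xirp1* (an actin-binding repeat protein of muscle), chr9:120023599-120023726 on the minus strand, had the MEF2 string TAAAAATA and the NKX2 string CACTTAA, starting 76 and 61 bases upstream. *Nppa* (atrial natriuretic peptide), chr4:148000277-148000425 on the plus strand, had a CArG box starting 407 bases upstream.
Acta1: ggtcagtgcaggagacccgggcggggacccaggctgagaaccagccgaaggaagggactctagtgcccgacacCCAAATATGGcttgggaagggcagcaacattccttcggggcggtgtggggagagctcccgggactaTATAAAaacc
Actc1: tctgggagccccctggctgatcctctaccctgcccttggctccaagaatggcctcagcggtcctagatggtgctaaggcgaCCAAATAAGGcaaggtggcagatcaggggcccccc
Myl3: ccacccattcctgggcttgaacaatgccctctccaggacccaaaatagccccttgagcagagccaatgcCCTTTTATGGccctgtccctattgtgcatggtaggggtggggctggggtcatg
Xirp1: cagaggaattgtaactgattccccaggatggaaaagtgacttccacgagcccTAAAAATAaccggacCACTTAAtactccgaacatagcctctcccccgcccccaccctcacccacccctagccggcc
Nppa: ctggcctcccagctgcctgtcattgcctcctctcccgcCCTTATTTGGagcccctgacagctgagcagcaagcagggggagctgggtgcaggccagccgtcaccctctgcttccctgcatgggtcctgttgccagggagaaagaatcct

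The CpG-poor peaks formed a low shoulder on the distribution of CpG ratios at gained promoter peaks. Their ratio had a median of 0.26 (quartiles 0.182 and 0.337), against 0.804 in the CpG-richer peaks. The median window held 9 CpGs, against 41. There was no gap at 0.4, and the peaks next to it had scores of the same order. The score is the authors' tag value for each peak in the pooled libraries, whose scaling is not given in the sources used here. Just inside were peaks of *Zfp85* (ratio 0.3996, score 221.5 tags) and *Zfp729b* (0.3998, 149 tags), and just outside were peaks of *Gramd1b* (0.4004, 229.5 tags) and *Dynlt3* (0.4008, 400.5 tags). GC content, which is not independent of the ratio because the C and G counts enter it, had a median of 53.4% in the CpG-poor and 64.8% in the CpG-richer windows. Of the 1189 peaks, 5 had no CpG in the window. The peaks had 1097 nearest genes, of which 1014 had 1 such peak, 75 had 2, 7 had 3 and *Lin28a* had 4.

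CpG-poor promoters were seldom reached by a gained peak. Of 42820 TSSs with a CpG-poor window of their own, 6.68% had a gained peak of any CpG content within 1 kb, against 65.3% of 50642 CpG-richer TSSs. The share rose in every step of CpG content. It was 2.77% (95% interval 2.4 to 3.19%) below a ratio of 0.1 and 12.5% (11.8 to 13.1%) from 0.3 to 0.4. It was 45.5% from 0.5 to 0.6 and 79.3% from 1 upwards. By genes, 48.1% of 21938 protein-coding genes had a gained peak within 1 kb of a TSS, and 5.12% (1124 genes) had a CpG-poor one. Of the latter, 479 also had a CpG-richer gained peak and 645 did not. Of the 6941 genes whose every annotated TSS was CpG-poor, 4.91% (341 genes) had a gained CpG-poor peak. A gained peak of any CpG content was found at 6.01% of them and at 67.6% of the 14997 genes with a CpG-richer TSS. Several TSSs can belong to 1 gene and 1 peak, so the intervals over TSSs cover counting error only and are too narrow.

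**Figure D1:**
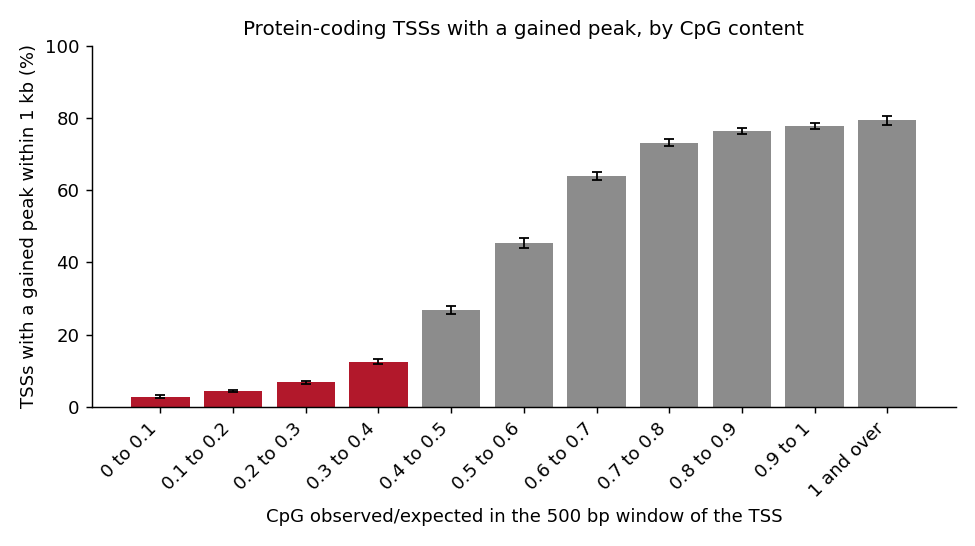
Share of protein-coding TSSs with a gained peak within 1 kb (vertical axis, %) by the CpG observed/expected ratio of the 500 bp window around the TSS (horizontal axis). Bars are shares with exact 95% intervals, red below 0.4 and grey above. The share rises from 2.77% in the lowest bin to 79.3% in the highest.

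The score was lower at CpG-poor than at CpG-richer promoters. Its median was 153 tags (quartiles 92 and 252, range 31.5 to 1111), against 451 tags (302.5 and 670, range 36 to 2050). Of the CpG-poor peaks, 77 or 6.48% (95% interval 5.14 to 8.03%) reached the median of 420 tags of all gained promoter peaks, against 55.2% of the CpG-richer ones (odds ratio 0.0563, adjusted p = 1.16e-258 over 5 shares, Fisher's exact test). At 500 tags or more were 47 of them (3.95%), against 43.1% of the CpG-richer peaks, and at 100 tags or fewer were 28.9% and 1.64%. The median score rose with each step of CpG content, from 94 tags below a ratio of 0.1 to 179 tags from 0.3 to 0.4, and on to 509.2 tags from 0.8 to 0.9, above which it was 497.5 and 478.5 tags. The score is not the size of the gain over WT.

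The lower score was also seen at matched positions. Among peaks that covered a TSS the medians were 170.5 tags at 375 CpG-poor and 449 tags at 5722 CpG-richer peaks. They were 159 and 522 tags from 1 to 250 bp, and 136.8 and 315 tags from over 250 to 1000 bp. Gained peaks more than 10 kb from any protein-coding TSS, with a median of 84.5 tags, were lower still. Over 10% repeated 36-base words, a sign that reads may map to several places, were found in 76 CpG-poor peaks (6.39%) and in 2.29% of the CpG-richer peaks (odds ratio 2.92, adjusted p = 8.3e-13, Fisher's exact test). The median of the 1113 others was 155.5 tags.

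**Figure D2:**
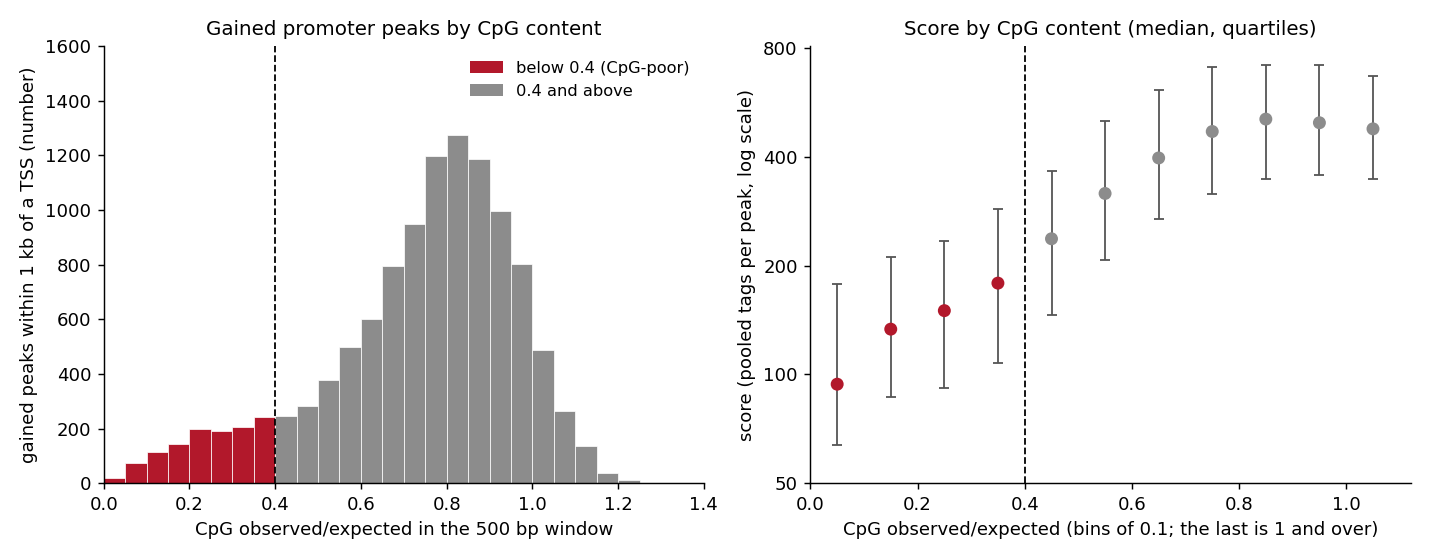
Left, number of gained peaks within 1 kb of a protein-coding TSS (vertical axis) by the CpG observed/expected ratio of their window (horizontal axis), with the 1189 CpG-poor peaks in red. Right, score in pooled tags per peak on a log axis for bins of that ratio, as median and quartiles. The dashed line marks 0.4, and the median rises from 94 tags in the lowest bin to 509.2 tags from 0.8 to 0.9.

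The CpG-poor peaks were placed less tightly on the TSS. A TSS was covered by 31.5% of them (95% interval 28.9 to 34.3%), against 56.4% (55.5 to 57.4%) of the CpG-richer peaks (odds ratio 0.356, adjusted p = 9.75e-60, Fisher's exact test). The median distance to the TSS was 109 bp, against 0 bp, and 39.5% and 11.4% lay more than 250 bp away. The centre lay downstream of the TSS in 40% (37.2 to 42.9%) of the CpG-poor and 35.8% of the CpG-richer peaks (odds ratio 1.2, adjusted p = 0.00626, Fisher's exact test). That difference was lost under 5 of 12 other settings, among them TSSs of protein-coding transcripts only (odds ratio 1.06, adjusted p = 0.446, Fisher's exact test). The 706 upstream peaks had a median score of 167.2 tags, the 476 downstream peaks 140.8 tags, and 7 were centred on the TSS. Another gained peak within 5 kb was found for 26.8% of CpG-poor and 26.7% of CpG-richer peaks (odds ratio 1.01, adjusted p = 0.945, Fisher's exact test), and the direction changed with the settings.

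**Figure D3:**
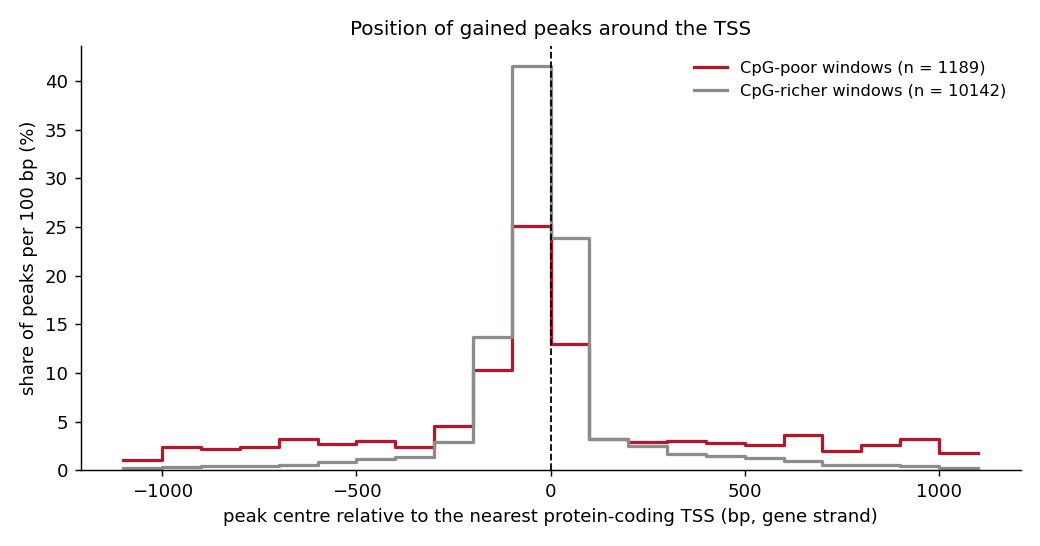
Position of the peak centre relative to the nearest protein-coding TSS in bp on the strand of the gene (horizontal axis) and share of peaks per 100 bp (vertical axis, %), for CpG-poor (red) and CpG-richer (grey) gained peaks. The CpG-richer peaks are concentrated at the TSS, where 56.4% cover it, whereas 39.5% of the CpG-poor peaks lie more than 250 bp away.

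The annotation around the peaks differed as well. TSSs of both strands lay within 1 kb of 1.77% of the CpG-poor and 11.3% of the CpG-richer peaks, and TSSs of a single gene within 1 kb of 97.3% and 87.5%. The nearest TSS was within 100 bp of the outermost TSS of its gene for 40.3% of the CpG-poor peaks (37.5 to 43.1%), against 70.9% of the CpG-richer ones. The other 710 CpG-poor peaks lay at internal TSSs, a median of 21018 bp inside the gene. Their median score was 146.8 tags, against 165.5 tags at the outermost TSSs. For 30.2% of the CpG-poor peaks every TSS of the gene was CpG-poor. For 509 peaks, or 42.8%, the same gene also had a CpG-richer gained peak at a TSS. An intron was the annotated place of 37.8% of the CpG-poor and 10.8% of the CpG-richer peaks, and a 5′ UTR was overlapped by 32% and 62.7%. The window of the nearest TSS was itself CpG-poor for 950 of the 1189 peaks (79.9%). The share of CpG-poor peaks among gained promoter peaks ranged over the autosomes from 7.26% on chromosome 18 to 13.4% on chromosome 16 and was 12.2% on chromosome X. Chromosome Y had 3 gained promoter peaks, of which 0 were CpG-poor.

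The strongest of the regions in sequence that is not repeated were at genes of varied function. The highest score, 1111 tags, belonged to a peak covering the TSS of *Tomm40l* (chr1:171222505-171222653), a relative of the channel for protein import into mitochondria. *Angptl2* (chr2:33215908-33216056, 977 tags), for a secreted angiopoietin-like protein, was also near the top. *Zkscan5* (897 tags), for a zinc finger protein, had its peak outside transcripts, 125 bp from the TSS. *Kcnh2* (894 tags), for a potassium channel that repolarises cardiomyocytes, had its peak 954 bp from a TSS. *Il11ra1* (884.5 tags), for the interleukin 11 receptor, and *Iffo1* (811.5 tags), for a protein of the intermediate filament family, had theirs across the TSS. These 6 peaks had ratios from 0.257 (*Angptl2*) to 0.388 (*Zkscan5*), all but *Angptl2* above the median of 0.26.

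A further 5 of the 20 highest scores were at the following genes. *Jph2* (chr2:163398029-163398177, 724 tags) encodes the junctophilin that holds the cell membrane to the calcium store of cardiomyocytes. *Speg* (chr1:75399949-75400097, 718.5 tags) encodes a kinase of striated muscle, and its peak covered an internal TSS 24788 bp inside the gene. *Myl4* (chr11:104576953-104577101, 700.5 tags) encodes the atrial light chain of myosin, and its peak covered a TSS 26354 bp inside the gene. The ratio at *Myl4* was 0.0995, with 4 CpGs in 500 bp, the lowest ratio of the 20. *Myo18a* (751 tags), for an unconventional myosin, had its peak 57 bp from a TSS 38052 bp inside the gene. *Lmcd1* (674.5 tags), for a LIM domain cofactor, had a CArG box in its peak.

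Others of the 20 were *Adnp2* (816 tags), *Zfp607b* (770.5 tags), *Ywhag* (741 tags), *AI464131* (724 tags), *Lipa* (719 tags), *Uggt2* (681.5 tags), *Kmt5a* (678.5 tags) and *Gapdh* (669.5 tags). *Lipa* encodes lysosomal acid lipase, *Uggt2* a folding sensor of the endoplasmic reticulum, *Kmt5a* a histone H4 methyltransferase and *Gapdh* an enzyme of glycolysis. At 5 of the 20 genes, *Angptl2*, *Il11ra1*, *Zfp607b*, *Jph2* and *Lipa*, every annotated TSS window was CpG-poor, and the other genes had a TSS with a ratio of 0.4 or more. The nearest TSS itself had such a window at *Kcnh2* (0.952), *Ywhag* (0.911), *Adnp2* (0.807), *Iffo1* (0.494), *AI464131* (0.413) and *Lmcd1* (0.409). Among peaks with over 10% repeated words the highest scores were at *Gipc2* (930.5 tags), *Zfp983* (488 tags), *Gm15446* (431 tags), *2610044O15Rik8* (411 tags) and *Tns1* (410 tags). The share of repeated words there ran from 14.9% to 57.9%.

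Genes of the sarcomere, the repeating unit of actin and myosin filaments that shortens when the cell contracts, had the largest share of such peaks of the lists and families counted. Of 30 listed sarcomere and contractile genes, 22 or 73.3% (95% interval 54.1 to 87.7%) had one, beside 5.12% of all protein-coding genes. Of the 19 listed genes that were CpG-poor at every TSS, 14 had one, beside 4.91% of all such genes. The list was compiled with earlier results of these data known, so the count is a description. It was between 19 and 22 under the 12 other settings tried, while the share of all protein-coding genes ran from 2.16% to 7.37%. The 27 peaks had a median score of 264 tags (126.5 to 700.5), above the 153 tags of all CpG-poor peaks.

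The actin and myosin genes of the list had from 215.5 to 700.5 tags at their highest peak. *Myl4*, with 700.5 tags, had a second peak of 246 tags, 890 bp from another TSS of the gene. *Actc1* had 619.5 tags across a TSS 661 bp inside the gene (chr2:114052855-114053003) and 296 tags 673 bp from its outermost TSS. *Myh6*, the alpha myosin heavy chain of the atria, had 464 tags (chr14:54966631-54966779), and its neighbour *Myh7*, the beta chain of the embryonic ventricle, had 264 tags (chr14:54994555-54994703). *Myl7*, an atrial regulatory light chain, had 392 tags, *Myl2*, its ventricular counterpart, 235.5 tags and *Myl3* 228 tags. *Acta1* had 215.5 tags. Atrial and ventricular members of the family both had such a peak, and in all but *Myl2* and *Acta1*, at 53 and 22 bp, the highest peak of the gene covered a TSS.

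The other listed genes with such a peak had from 126.5 to 599.5 tags at their highest one. *Tnnt2* had 599.5 tags (chr1:135836163-135836311), 43 bp from the TSS. *Tnni1*, the slow troponin I of the embryonic heart, had 484 tags in an intron 795 bp from the TSS, *Tnni3*, the adult cardiac form, 197.5 tags across the TSS, and *Tnnc1*, cardiac troponin C, 283.5 and 256 tags. *Mybpc3*, cardiac myosin-binding protein C, had 279 and 254 tags. *Unc45b*, a myosin chaperone, had 395 tags, *Ankrd1*, a titin-bound stress protein, 373 tags and *Cryab*, a small heat shock protein, 370.5 and 328.5 tags. The *Cryab* peak of 328.5 tags covered a TSS of *Hspb2*, its nearest gene. *Xirp1* (222.5 tags), *Csrp3* (212 tags), *Ttn*, the titin gene (199 tags), *Smpx* (185.5 tags), *Nebl* (141.5 tags) and *Myom1* (126.5 tags) made up the lower end.

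The 8 listed genes without a CpG-poor gained peak fell into 2 kinds. *Des*, *Tpm1* and *Actn2*, for desmin, tropomyosin and alpha-actinin, had a CpG-richer TSS window and a CpG-richer gained peak instead. *Tcap*, *Ldb3*, *Myoz2*, *Lmod2* and *Myom2* were CpG-poor at every TSS and had no gained peak within 1 kb.

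Other heart genes were counted in a pair of lists. Of 24 genes of calcium handling, natriuretic peptides and energy supply, 7 had a gained CpG-poor peak (29.2%, 12.6 to 51.1%, beside 5.12% of all genes) and 13 a gained promoter peak of any CpG content (54.2%, near the 48.1% of all genes). *Nppb*, brain natriuretic peptide, had 437 tags across the TSS (chr4:147985654-147985802), and *Nppa* next to it had 347.5 tags 297 bp from the TSS. *Cacna1c*, the L-type calcium channel, had 395 tags at its outermost TSS and 279 tags at an internal one, *Asb2*, a ubiquitin ligase subunit of muscle, 321 and 172 tags, *Cox6a2* 133.5 tags, *Bmp10*, a growth factor of trabeculae, 116 tags and *Ckmt2*, mitochondrial creatine kinase, 103 tags. Without such a peak, though CpG-poor at every TSS, were *Mb*, *Cox8b*, *Casq2*, *Ckm*, *Hrc*, *Pln*, *Sln* and *Cox7a1*, for myoglobin, calsequestrin, phospholamban and sarcolipin among others. Of 20 cardiac transcription factors, none was CpG-poor at every TSS. A gained promoter peak of any CpG content was found at 13 (65%), near the 67.6% of genes with a CpG-richer TSS. Of all genes, 48.1% had one. A CpG-poor one was found at 3 (15%, 3.21 to 37.9%, an interval that includes the 5.12% of all genes). These were *Tead1* (320.5 tags), *Myocd*, the coactivator of SRF (223 tags), and *Gata4* (117 tags), and all 3 also had a CpG-richer gained peak.

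Markers of other cell types were counted in the same way. Of 24 endocardial and endothelial genes, 3 had a CpG-poor gained peak (12.5%, 2.66 to 32.4%), namely *Egfl7* (304 tags), *Ecscr* (124 tags) and the angiopoietin receptor gene *Tek* (79.5 tags). Of 18 epicardial, mesenchymal and smooth muscle genes, 2 had one (11.1%, 1.38 to 34.7%), *Sparc* with 435 tags and *Wt1* with 194 tags. Of 23 leukocyte and platelet genes, 1 had one (4.35%, 0.11 to 21.9%), *Fcer1g* with 77 tags. The intervals of these 3 shares included the 5.12% of all genes. None of 19 erythroid genes found, of which 13 were CpG-poor at every TSS, had any gained promoter peak, and neither did any of 20 genes of liver and gut, of which 12 were CpG-poor at every TSS. Lists of that size allow shares of up to 17.6% and 16.8%, below the 48.1% of all genes with any gained promoter peak but not below the 5.12% with a CpG-poor one. Of genes CpG-poor at every TSS, 6.01% had any gained promoter peak, a share within both limits. Of 18 genes of skeletal muscle, *Casq1* (150.5 tags) alone had one, which is 5.56% and near the 5.12% of all genes.

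Glycolysis and the response to hypoxia were examined in the study. Of 20 glycolysis genes, of which 2 were CpG-poor at every TSS, 19 had a gained promoter peak of some kind (95%). The share was 67.6% among genes with a CpG-richer TSS and 48.1% among all genes. A CpG-poor one was found at 4 (20%, 5.73 to 43.7%, beside 5.12%). These were *Gapdh* (chr6:125166468-125166616, 669.5 tags), *Aldoc* (365 tags), *Pgam2*, the muscle form of phosphoglycerate mutase (173 tags), and *Eno2* (115.5 tags). Of 21 hypoxia genes, none was CpG-poor at every TSS, and 18 had a gained promoter peak (85.7%, beside the same 67.6%). A CpG-poor one was found at 2 (9.52%, 1.18 to 30.4%), with an interval that included 5.12%. *P4ha2*, a collagen prolyl hydroxylase, had 625 and 83 tags, and *Adm*, adrenomedullin, had 261 tags.

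Large gene families were counted as well. Of 1135 olfactory receptor genes, 1110 were CpG-poor at every TSS, and 4 had a gained CpG-poor peak (0.352%, 0.0961 to 0.9%). They were *Olfr156* (150 tags), *Olfr435* (65 tags), *Olfr1033* (59.5 tags) and *Olfr177* (47.5 tags). Of 331 vomeronasal receptor genes, 2 had one, *Vmn2r4* (61 tags) and *Vmn1r200* (41 tags), both in partly repeated sequence. None of 42 beta-defensin genes had one, which allows a share of up to 8.41% and so includes the 5.12% of all genes. None of 102 ribosomal protein genes had one either (up to 3.55%). Of these, 3 were CpG-poor at every TSS, and 67.6% had a gained promoter peak. That is the share of all genes with a CpG-richer TSS (67.6%), and 48.1% of all genes had such a peak.

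Keratins and keratin-associated proteins had 3 of 110 (*Krt19* with 302 tags, *Krt13* with 124 and *Krt20* with 56.5), cytochrome P450 genes 3 of 99 (*Cyp4f13* with 182.5 tags, *Cyp4f16* with 180 and *Cyp2w1* with 150) and chemokine ligands 1 of 35 (*Cxcl3* with 112 tags). Clustered histone genes had 3 of 67, *Hist1h4j* with 177.5 tags and *Hist1h2be* and *Hist1h1e*, which shared a peak of 254.5 tags. Solute carriers had 28 of 371, or 7.55% (5.07 to 10.7%). The interval of each of these 5 shares included the 5.12% of all genes.

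The Zfp share over the whole family, unlike that of the serpins, depended on peaks in repeated sequence. Of 61 genes of serpins, inhibitors of proteases, 8 had a gained CpG-poor peak (13.1%, 5.84 to 24.2%, beside 5.12% of all genes). All 8 were among the 54 serpin genes that were CpG-poor at every TSS (14.8%, beside 4.91% of all such genes). *Serpinf1* had 98 and 91 tags, and *Serpina3i*, *Serpina3n*, *Serpinb6b*, *Serpina10*, *Serpina16* and *Serpinb8* had from 53 to 63 tags, all among the weaker peaks, and none of the serpin peaks had over 10% repeated words. Of 394 zinc finger genes named Zfp, 33 had one (8.38%, 5.84 to 11.6%, beside 5.12%), with a median of 173.5 tags, and 12 of them were among the 50 that were CpG-poor at every TSS (24%, beside 4.91%). Of the 36 Zfp peaks, 13 (36.1%) had over 10% repeated words, against 6.39% of all CpG-poor peaks. Without peaks of that kind 22 Zfp genes were left (5.58%, 3.53 to 8.33%), an interval that included the 4.81% of all genes counted in the same way. The 24% was not recounted. Of those 12 genes, *Zfp52*, *Zfp811*, *Zfp457*, *Zfp607b*, *Zfp759*, *Zfp950* and *Zfp111* had a peak with at most 10% repeated words. Myosin heavy and light chain genes, which overlap the sarcomere list, had 9 of 26 (34.6%, 17.2 to 55.7%, beside 5.12%), among them *Myh7b* (171.5 tags), *Myl12b* (81.5 tags) and *Myl1* (46 tags).

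**Figure D4:**
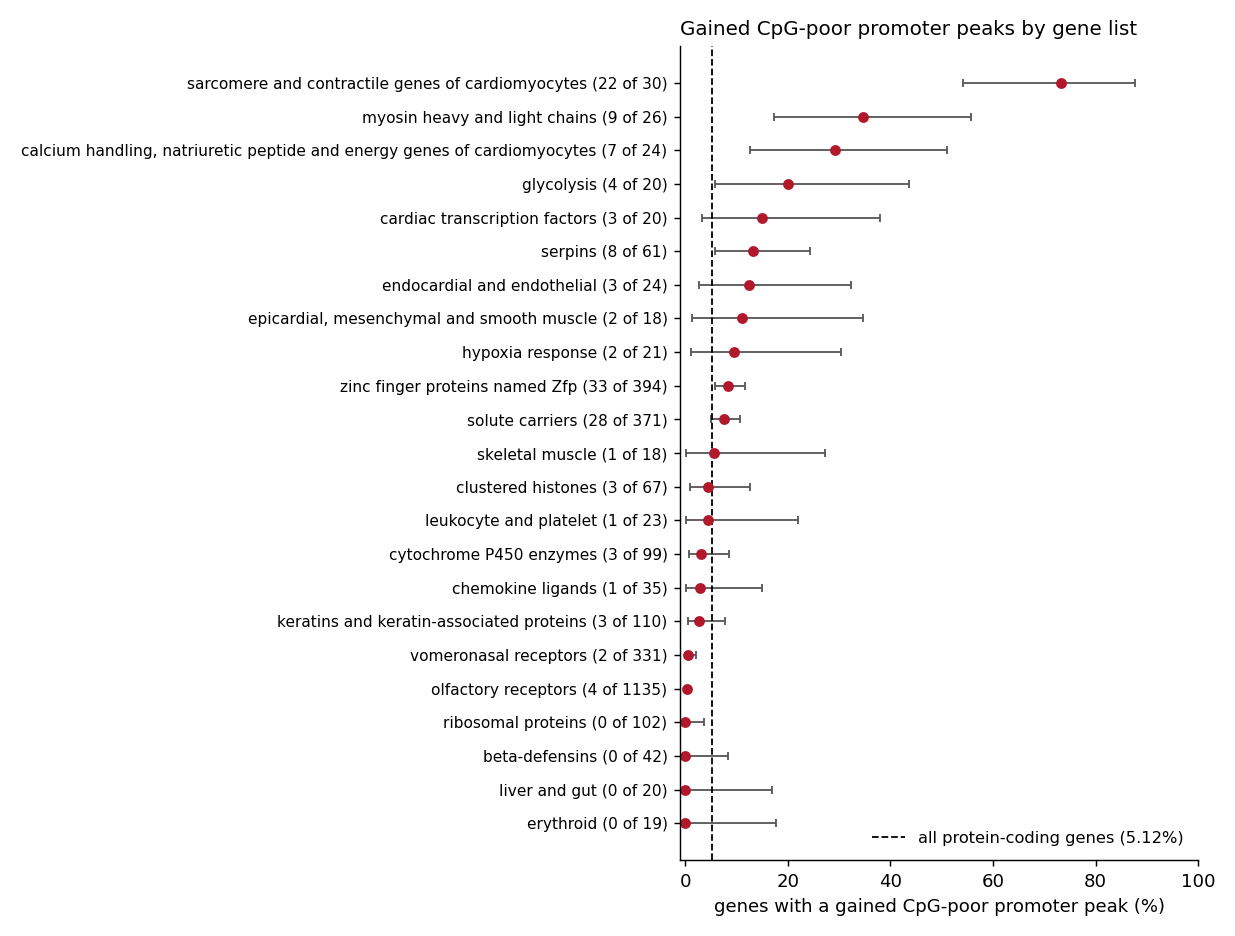
Share of genes with a gained CpG-poor promoter peak (horizontal axis, %) for each gene list or family (vertical axis, with the number of such genes of those found). Points are shares, lines are exact 95% intervals, and the dashed line marks the 5.12% of all protein-coding genes. The sarcomere list, at 73.3%, stands to the right of every other list.

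Short motifs were counted on both strands of the 149 bp peaks. They were set beside windows of the same length centred on CpG-poor TSSs with no gained peak within 1 kb (33529 windows), because CpG-richer sequence differs in the strings it can hold. The GATA string AGATAAG was in 5.55% of the CpG-poor peaks (4.32 to 7.01%), 0.404% of the CpG-richer peaks and 1.85% (1.71 to 2%) of these windows. In all TSS windows of this length its share was 1.35%. It was in 6.93% of the CpG-poor peaks that covered a TSS and in 7.35% of gained peaks over 10 kb from any protein-coding TSS. The TEAD string CATTCCA was in 4.12%, 0.809% and 2.47%, and in 1.9% of all TSS windows. A reordered AP-1 string, TCAGTCA, used as a control, was in 2.44%, 1.37% and 3%, and in 2.4% of all TSS windows. AP-1 itself, TGACTCA, was in 3.95%, 1.26% and 2.71%, and in 2.15% of all TSS windows. A match is a string of letters and not a bound site.

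Of the 66 CpG-poor peaks with AGATAAG, which had a median of 132.2 tags, the 4 strongest were named after their values were seen. *Mylk3*, the myosin light chain kinase of the heart, led with 562.5 tags, followed by *Popdc2*, for a membrane protein of striated muscle that binds cyclic AMP, with 540 tags. *Smim1* had 463 tags and *Alpk3*, for a kinase-like protein of cardiomyocytes, 455.5 tags. In the sarcomere list *Mybpc3*, *Tnni3* and *Nebl* had the string. The stretches outside exons are shown for 3 of these peaks, with AGATAAG or its reverse complement in capitals. They are *Mylk3* (chr8:85381035-85381161, minus strand, the string starting 57 bases upstream of the TSS), *Popdc2* (chr16:38361992-38362098, plus strand, 176 bases upstream) and *Alpk3* (chr7:81058005-81058153, plus strand, 425 bases downstream, in an intron).
Mylk3: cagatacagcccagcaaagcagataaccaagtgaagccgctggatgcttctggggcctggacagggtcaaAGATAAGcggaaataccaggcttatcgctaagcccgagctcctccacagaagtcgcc
Popdc2: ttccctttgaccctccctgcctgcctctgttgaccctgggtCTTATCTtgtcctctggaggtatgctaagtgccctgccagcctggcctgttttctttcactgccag
Alpk3: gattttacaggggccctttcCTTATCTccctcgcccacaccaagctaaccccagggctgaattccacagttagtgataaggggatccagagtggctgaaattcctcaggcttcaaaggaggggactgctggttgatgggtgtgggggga

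The core motif of CTCF, the architectural protein that anchors chromatin loops, was in 70 CpG-poor peaks (5.89%, 4.62 to 7.38%), 0.641% of the CpG-richer peaks and 0.125% of CpG-poor TSS windows without a gained peak. In all TSS windows its share was 0.169%. It was found away from the TSS. Only 4 of the 70 peaks covered one, and the share was 1.07% (0.291 to 2.71%) among CpG-poor peaks that covered a TSS and 9.79% (7.26 to 12.8%) among those more than 250 bp away. At that distance 2.33% of the CpG-richer peaks had it, and of gained peaks over 10 kb away 6.12% did. The median score of the 70 peaks was 158.2 tags. The strongest were at *Mfsd3* (538 tags), *Amigo3* (389 tags), *Slc24a3* (373.5 tags) and *Egln2* (329.5 tags). Stretches of 2 of them show the match, in capitals, on the strand of the gene. That of *Slc24a3* (chr2:145167041-145167189, plus strand) starts 644 bases upstream of the TSS and that of *Amigo3* (chr9:108052976-108053124, plus strand) 134 bases upstream, the latter as the reverse complement.
Slc24a3: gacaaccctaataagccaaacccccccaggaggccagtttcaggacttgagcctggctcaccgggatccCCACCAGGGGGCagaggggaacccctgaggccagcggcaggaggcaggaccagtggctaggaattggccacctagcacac
Amigo3: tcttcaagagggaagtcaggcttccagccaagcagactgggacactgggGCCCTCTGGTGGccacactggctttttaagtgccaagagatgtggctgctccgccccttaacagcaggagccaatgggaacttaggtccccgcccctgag

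The boxes of core promoters differed in how the groups compared. The SP and KLF box GGGCGG, which holds a CpG, was in 13.5% (11.7 to 15.6%) of the CpG-poor peaks, 58.5% of the CpG-richer peaks and 4.03% of CpG-poor TSS windows without a gained peak, with 20.05% of all TSS windows. The ETS string CCGGAAG was in 2.02%, 10.5% and 1.08%, and in 4.08% of all TSS windows. The NRF1 string GCGCATGCG was in 0.0841%, 1.84% and 0.0507%, and in 0.63% of all TSS windows. The NF-Y box CCAAT was in 18.6%, 26% and 18.3%, and in 17.4% of all TSS windows. For NRF1 (0.00213 to 0.468%) and CCAAT (16.4 to 20.9%) the interval of the CpG-poor peaks included the share of CpG-poor TSS windows without a gained peak. The strings that contain CpG are fewer in CpG-poor sequence by the rule that chose it, so they are given as a description only.

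TATAAA, the core of the TATA box, was in 3.87% (2.85 to 5.13%) of the CpG-poor peaks and 1.31% of the CpG-richer peaks, against 9.19% (8.88 to 9.5%) of CpG-poor TSS windows without a gained peak and 6.53% of all TSS windows. Among the CpG-poor peaks that covered a TSS, as these windows do, it was in 3.2% (1.66 to 5.52%). In the place where a TATA box works, 40 to 20 bases upstream on the strand of the gene, it was found at 6 of 560 CpG-poor TSSs covered by a CpG-poor peak (1.07%, 0.394 to 2.32%) and at 1.9% (1.77 to 2.04%) of CpG-poor TSSs without a gained peak. *Acta1*, printed above, has its match there, but its peak lay 22 bp from the TSS, so it is not among the 560. The MEF2 string TAAAAATA was in 1.68% of the CpG-poor peaks, 0.128% of the CpG-richer peaks and 1.57% of CpG-poor TSS windows without a gained peak, within the interval of the first (1.03 to 2.59%). The CArG box, added after the listed genes were seen, was in 1.09% (0.583 to 1.86%), 0.601% and 0.746%, and in 0.619% of all TSS windows. Of the 13 CpG-poor peaks with a CArG box, the 8 with the highest scores were at *Lmcd1*, *Actc1*, *Ptms*, *Schip1*, *Nppa*, *Myl3*, *Stk40* and *Acta1*. The TBP, MEF2 and SRF strings can share bases. The T-box string AGGTGTG was in 1.85%, 1.29% and 3.94%, and the NKX2 string CACTTAA in 1.18% (0.645 to 1.97%), 0.335% and 1.46%.

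**Figure D5:**
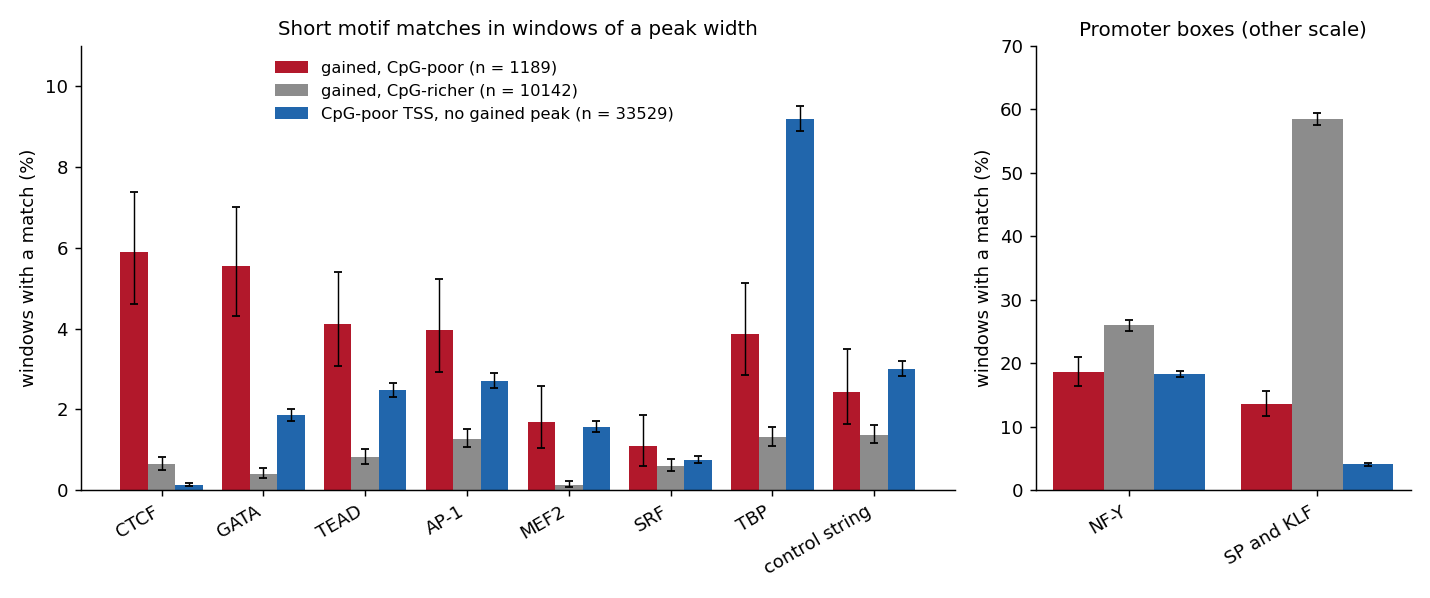
Share of 149 bp windows with a match on either strand (vertical axes, %, with another scale on the right) for the motif of each factor, in CpG-poor gained peaks (red), CpG-richer gained peaks (grey) and CpG-poor TSS windows without a gained peak (blue). Lines are exact 95% intervals. CTCF and GATA matches are more frequent in the red group, at 5.89% and 5.55%, than in the blue group, at 0.125% and 1.85%, and the TBP match is less frequent, at 3.87% against 9.19%.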

How the data were processed

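ATAC-seq libraries of *Smyd1-KO* and WT hearts at E9.5, 2 per genotype, were aligned to mm10 with BWA-MEM by the authors, who called peaks with HOMER on the pooled libraries of each genotype and kept those that differed between genotypes. The deposited lists give each 149 bp peak with a signal, the authors' tag value in the pooled libraries, called the score here. Its scaling and the handling of duplicates and multiply mapped reads are not given in the sources used here and could change which peaks are listed. Depths per library cannot be read from the lists.

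The lists hold no WT-to-KO ratio per peak and no unchanged peaks. Distances were taken from the nearer peak edge to all TSSs of protein-coding genes in GENCODE M21. The CpG ratio was the number of CpGs times the window length over the product of the C and G counts. Coordinates count from 1. The share of 36-base words found again in the 21 chromosomes measured repetition. Two-sided Fisher's exact tests set the shares against each other, with Benjamini-Hochberg adjustment over 5 shares, and intervals are exact Clopper-Pearson 95% intervals that cover counting error only, since peaks are not independent samples. Gene lists and motifs were described, not tested. A gene counted with a peak at most 1 kb from a TSS of its own. Scripts were tested on simulated data. Python 3.11.15, NumPy, pandas and SciPy were used.

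The regions, gene lists and motifs were chosen with earlier results of these data known. Named genes are those of the 20 highest scores with at most 10% repeated words, the 5 highest of the others, the genes of the lists, and the 2 peaks on each side of the CpG threshold. Of these, 2 genes are not reported here. The strongest peaks with a motif and the genes with several peaks were chosen after their values were seen. The 12 alternatives concerned TSS set, distance, CpG threshold, window and formula, score, repeats and chromosomes, 1 of them (class of the nearest TSS) added after seeing the data.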

Additional observations from a re-analysis of the deposited data

How the results depend on the processing

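Under the 12 other settings the lower shares of CpG-poor peaks covering a TSS (odds ratios 0.246 to 0.508) and reaching the median score (0.0488 to 0.136) kept their direction and side of the threshold, as did the larger share in repeated sequence (2.36 to 3.34, not computable once repeated peaks were left out). The number of CpG-poor peaks ran from 493 to 1716. It was 742 with a CpG threshold of 0.3 and 493 among peaks at or above the median score of the whole list, in both cases because fewer peaks qualify. The sarcomere count stayed between 19 and 22. The downstream excess was no longer past 0.05 with protein-coding transcripts only (1.06), within 500 bp (1.01), with a threshold of 0.3 (1.17), with the peak interval as window (1.04) and among the higher scores (1.01). The share with another gained peak within 5 kb passed as higher with protein-coding transcripts only (1.18), with a threshold of 0.5 (1.13) and among the higher scores (1.74). It turned lower within 2 kb (0.96), with a threshold of 0.3 (0.883), with a window of 1000 bp (0.849), on autosomes only (0.984) and when the nearest TSS had to be of the same class (0.745), and passed as lower with the 1000 bp window (adjusted p = 0.0194, Fisher's exact test) and with the same class (adjusted p = 0.000401, Fisher's exact test). The cause of these changes was not tested. No paired analysis was possible because the lists hold pooled libraries, and for the same reason no library could be left out.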

Other observations

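Of the genes with a gained CpG-poor peak, 8 had 3 or more, picked out here after their values were seen. In some these lay close together and in others at TSSs far apart. *Lin28a*, which encodes an RNA-binding protein that blocks let-7 maturation in early embryonic cells, had 4 peaks between chr4:134011673-134019448 with scores of 172 to 308 tags. *Kcnh2* had 3, from 283 to 894 tags, spread over chr5:24322525-24352706. *Ak1*, the adenylate kinase of muscle, had 3 from 254.5 to 326.5 tags, and the strongest of these held both TATAAA and AGATAAG. *Ptpa*, an activator of the phosphatase PP2A, had 3 from 201.5 to 362 tags, and *Rgs3*, a regulator of G-protein signalling, 3 from 133.5 to 555.5 tags, spread over chr4:62619508-62699651. *Cc2d2a*, for a protein of the base of cilia, had 3 from 131.5 to 190.5 tags, and *Vps13d* 3 from 72.5 to 175 tags. *Tfpi*, the inhibitor of the tissue factor pathway of clotting, had 3 weak ones, from 73.5 to 107.5 tags. Peaks of 1 gene share their surroundings and are not separate evidence.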
